A study of Homo sapiens with 6 samples.

Results

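Transcript levels of 10 genes that encode Hippo pathway kinases and the YAP/TEAD transcription machinery were examined in LX-2 cells after silencing of OGT. The genes were YAP1, WWTR1, TEAD1, TEAD2, TEAD3, TEAD4, VGLL4, LATS1, LATS2 and STK3. They were taken by symbol from the 16907 genes counted per library, and 10 of 10 were found and passed the filter on low counts, among 14853 genes tested. LX-2 is an immortalised human hepatic stellate cell line. Stellate cells turn into collagen-producing myofibroblasts when the liver is injured. Cells received 20 nM of siControl or siOGT for 72 h, and there were 3 libraries per group, labelled as biological replicates 1 to 3. The product of OGT places the sugar O-GlcNAc on nuclear and cytosolic proteins. Per the study's list of reagents, siControl was a negative control from one supplier and siOGT a pool of siRNAs from another. Effects of OGT silencing and of the differing siRNA reagents therefore cannot be told apart, and the results describe 1 cell line.

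In the Hippo pathway, the kinase STK3 (also called MST2) and its paralog STK4 activate LATS1 and LATS2, which phosphorylate the coactivators YAP1 and TAZ. Phosphorylated YAP1 and TAZ are held in the cytoplasm by 14-3-3 proteins or degraded. The symbol of the gene for TAZ is WWTR1. Unphosphorylated YAP1 and TAZ enter the nucleus and bind TEAD1 to TEAD4, DNA-binding factors with little activity of their own, whereas VGLL4 competes with them for TEADs and represses. In stellate cells this pathway responds to matrix stiffness and cell contact, and YAP1 activity is known to accompany their activation. The pathway is controlled largely by phosphorylation and protein turnover, which counts of polyadenylated RNA do not measure.

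Promoter windows of the 4 genes that changed, described below, and of YAP1, the paralog of WWTR1, are given to show the sequence before 1 annotated start of each. RefSeq windows (GRCh38.p14, 250 bases before to 50 after a start) were found for 7 of the 10 genes, 14 windows in all. STK3 was not searched, and none was found for TEAD1 and TEAD4. WWTR1, TEAD2, VGLL4 and LATS1 had more than 1 window, and the start used in LX-2 cells was not measured. The 250 bases before the start nearest to that of the Ensembl canonical transcript are printed 5′ to 3′ on the gene's strand. Capitals mark matches, on either strand, to the TEAD core CATTCC, the AP-1 motif TGANTCA, the E-box CACGTG and the GC box GGGCGG.
WWTR1, chr3:149658026-149658275, minus strand: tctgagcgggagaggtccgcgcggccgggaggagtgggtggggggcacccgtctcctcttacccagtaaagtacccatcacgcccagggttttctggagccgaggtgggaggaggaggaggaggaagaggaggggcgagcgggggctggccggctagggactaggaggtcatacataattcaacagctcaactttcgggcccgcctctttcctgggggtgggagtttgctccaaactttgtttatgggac
YAP1, chr11:102110197-102110446, plus strand: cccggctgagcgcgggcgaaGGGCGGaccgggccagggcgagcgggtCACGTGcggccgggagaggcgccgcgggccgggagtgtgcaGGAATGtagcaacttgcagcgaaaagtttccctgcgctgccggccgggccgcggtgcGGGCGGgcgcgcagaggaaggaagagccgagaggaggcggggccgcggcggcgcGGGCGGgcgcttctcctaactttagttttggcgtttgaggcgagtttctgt
TEAD2, chr19:49362417-49362666, minus strand: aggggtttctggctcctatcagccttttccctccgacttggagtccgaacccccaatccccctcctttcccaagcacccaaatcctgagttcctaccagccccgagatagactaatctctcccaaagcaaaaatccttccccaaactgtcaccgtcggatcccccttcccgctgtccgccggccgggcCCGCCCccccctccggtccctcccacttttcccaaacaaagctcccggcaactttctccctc
VGLL4, chr3:11643916-11644165, minus strand: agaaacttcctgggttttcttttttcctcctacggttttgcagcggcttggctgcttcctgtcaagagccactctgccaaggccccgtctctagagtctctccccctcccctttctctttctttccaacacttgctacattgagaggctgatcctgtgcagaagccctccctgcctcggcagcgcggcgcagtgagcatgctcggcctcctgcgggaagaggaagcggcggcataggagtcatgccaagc
LATS1, chr6:149718102-149718351, minus strand: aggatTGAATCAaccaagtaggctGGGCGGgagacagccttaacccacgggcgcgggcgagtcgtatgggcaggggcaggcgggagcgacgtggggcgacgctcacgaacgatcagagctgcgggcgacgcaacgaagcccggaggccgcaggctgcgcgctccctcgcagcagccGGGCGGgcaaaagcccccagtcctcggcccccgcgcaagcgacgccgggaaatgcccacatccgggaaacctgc
The TEAD core was found in 4926 of 35097 RefSeq windows of the same length, the AP-1 motif in 7.71% of them, the E-box in 7.25% and the GC box in 44.9%. Among the 14 windows the TEAD core occurred once in that of YAP1, at position -162 relative to the start, and once in that of LATS2, at position 9. It was not present in the windows of WWTR1, TEAD2, TEAD3, VGLL4 and LATS1. The paralogs YAP1 and WWTR1 differed in these letters, as the YAP1 window held 3 GC boxes and 1 E-box and the WWTR1 window neither. A match to these letters is a description and not evidence of binding.

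Libraries held between 25996770 and 27966801 expected counts. OGT fell by 2.18 on the log2 scale (SE 0.073, edgeR adjusted p-value 2.71e-12) and was lower in 3 of 3 pairs, which checks the labels. Levels are in CPM (counts per 1000000 counts), TMM-scaled except for the cell type markers, which were scaled to library totals alone. Of 15 stellate and mesenchymal markers found, 11 had a mean of at least 1 CPM, led by VIM, COL1A1 and SPARC. Among the 11, the myofibroblast marker ACTA2 had 4.73 to 9.69 CPM and PDGFRA 7.01 to 10.1 CPM. The quiescent stellate marker LRAT, together with LUM, DES and HAND2, stayed at or near 0, with at most 6 counts in a library. Hepatocyte markers reached 4.42 CPM in sum. The summed macrophage list was 132 to 160 CPM in siControl and 175 to 212 CPM in siOGT. CD68, which encodes a lysosomal protein of many cell types, made up 123 to 205 CPM of it and CD14 4.55 to 7.62 CPM. CSF1R reached 1.38 CPM, the defining marker PTPRC 0.844 CPM and CD163 at most 2 counts. Endothelial markers summed to at most 8.19 CPM in either group, and 2 of 5 were at 1 CPM or more. The bile duct list summed to 88.6 to 127 CPM, of which SOX9 made up 83.1 to 121 and KRT7 4.75 to 7.94, whereas KRT19 and EPCAM had at most 4 counts in a library. The part of these markers in the results was not tested.

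Of the 10 genes, 4 passed the test in the comparison of siOGT with siControl. WWTR1, VGLL4 and LATS1 rose and TEAD2 fell. This is 40.0% of the genes, against 25.4% of all genes tested, 12.7% being called higher and 12.7% lower. A gene is called where the edgeR p-value, from a fit that blocks on replicate number, adjusted over all genes tested, is at most 0.05. The median log2 fold change was -0.05 over the 10 genes and 0.007 over all genes tested, with members on either side of 0. The log2 ratio had the same sign in 3 of 3 pairs for 6 of the 10 genes, against 54.0% of all genes, and the libraries of siOGT lay outside the range of siControl for 2 of them, against 23.9% of all genes. The latter is 20.0% of the genes and the former 60.0%, neither far from the background. Under the alternatives, the share of all genes called was 0.875% with edgeR without the block, 24.9% with median-ratio size factors and 25.1% with library totals alone. DESeq2 called 19.2% with the block and 6.77% without it, of the 12549 genes that it gave an adjusted p-value. The share was 27.9% with a stricter filter, 24.2% with none and 25.5% with unrounded counts, each over the genes tested in that fit. It was 12.5%, 22.5% and 23.8% of those tested without replicate 1, 2 and 3. In RNA from bulk cultures, a smaller share of cells expressing a gene and less RNA of it per cell cannot be told apart.

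**Figure D1:**
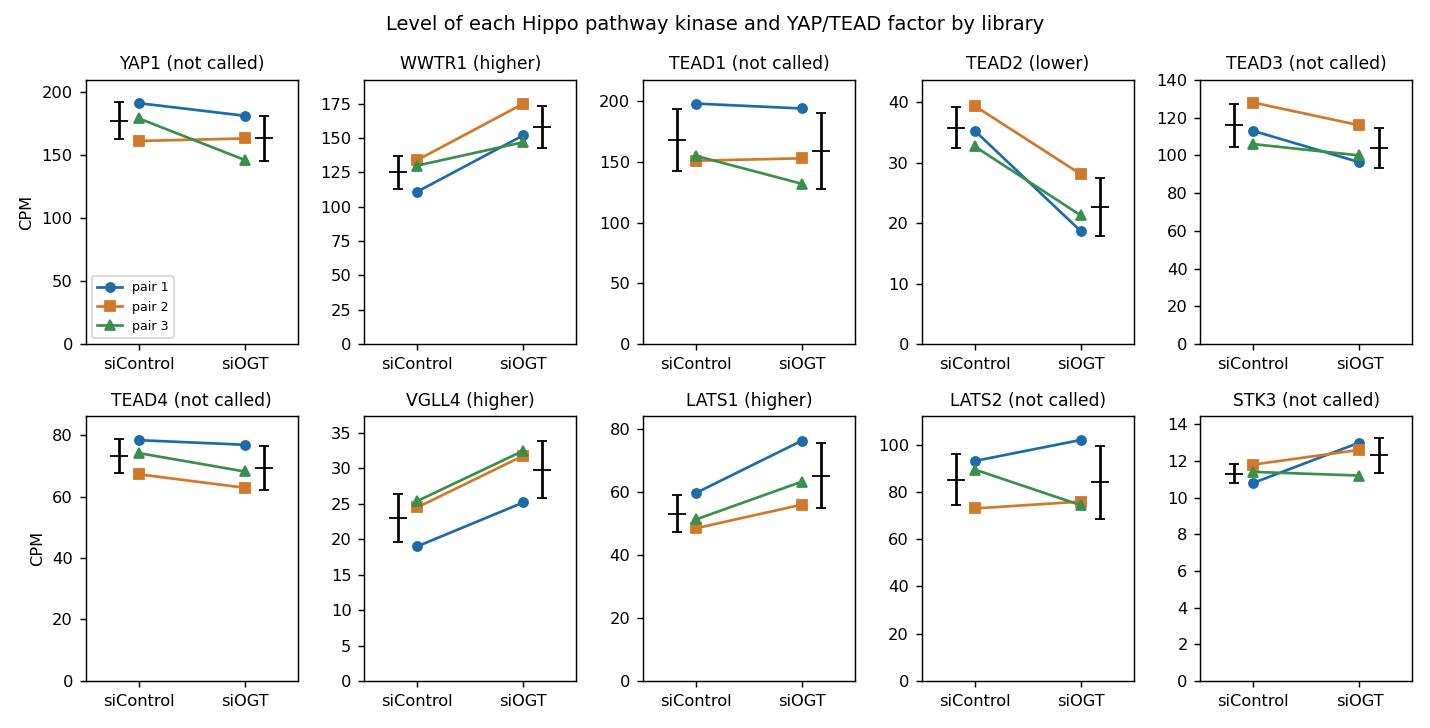
CPM of each of the 10 genes (vertical axis, from 0) in siControl and siOGT, with the libraries of a pair joined by a line and the mean ± SD of 3 libraries in black beside them. All 3 lines rise for WWTR1, VGLL4 and LATS1 and all 3 fall for TEAD2, whereas those of YAP1, TEAD1, LATS2 and STK3 go in different directions.

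The coactivators were examined first. WWTR1 (chromosome 3, 149517235 to 149736714, minus strand, hg38) had 111, 134 and 130 CPM in siControl 1, 2 and 3, and 152, 175 and 147 CPM in siOGT 1, 2 and 3. The lowest siOGT library was above the highest siControl library. WWTR1 rose by 36.6%, 31.2% and 13.4% in the 3 pairs. In the fit over all pairs the rise was 0.34 on the log2 scale (SE 0.069, edgeR adjusted p-value 0.00157), with a 95% confidence interval from 0.20 to 0.49. The call did not hold without replicate 1 (0.29, edgeR adjusted p-value 0.0588) and without the replicate block (0.146). YAP1 (chromosome 11, 102110447 to 102233424, plus strand), which encodes the other coactivator, had 191, 161 and 179 CPM in siControl and 181, 163 and 146 CPM in siOGT. These ranges overlapped, and the log2 ratios of the pairs were -0.08, 0.01 and -0.29. The 95% confidence interval of its log2 fold change, -0.27 to 0.03, leaves room for a decrease but not for a rise of the size of that of WWTR1 (edgeR adjusted p-value 0.236).

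The 4 TEAD genes encode the DNA-binding factors through which both coactivators act. TEAD2 (chromosome 19, 49340595 to 49362457, minus strand) had 35.3, 39.4 and 32.7 CPM in siControl and 18.7, 28.1 and 21.3 CPM in siOGT. Each siOGT library was below each siControl library, and the decrease was present in 3 of 3 pairs. By pair, TEAD2 fell by 46.9%, 28.8% and 35.1%, giving a log2 fold change of -0.67 (SE 0.086, 95% confidence interval -0.85 to -0.49, edgeR adjusted p-value 2.98e-05). The corresponding fold was 0.628, the largest change among the 10 genes. It stayed called in 10 of 11 alternatives, the exception being the edgeR fit without the replicate block (adjusted p-value 0.0754). TEAD3 (chromosome 6, 35473597 to 35497079, minus strand) had 113, 128 and 106 CPM in siControl and 96.4, 116 and 100 CPM in siOGT. It was lower in 3 of 3 pairs, by less than in TEAD2, but the groups overlapped and it did not pass the test (log2 fold change -0.15, SE 0.064, edgeR adjusted p-value 0.0999). Without replicate 3 it was called (-0.19, adjusted p-value 0.0395).

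TEAD1 (chromosome 11, 12674421 to 12944737, plus strand) and TEAD4 (chromosome 12, 2959330 to 3040676, plus strand) were not called. TEAD1 had 198, 151 and 155 CPM in siControl and 194, 153 and 132 CPM in siOGT, so that replicate 1 was the highest in each group. Its largest log2 ratio was -0.24, in pair 3. TEAD4 had 78.4, 67.3 and 74.2 CPM in siControl and 76.9, 62.9 and 68.2 CPM in siOGT, with percent changes of -1.93, -6.63 and -8.11 in the pairs and overlapping groups. The 95% confidence intervals of their log2 fold changes were -0.23 to 0.06 for TEAD1 and -0.22 to 0.05 for TEAD4 (edgeR adjusted p-values 0.398 and 0.39). Decreases as large as that of TEAD2 lie outside both intervals.

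VGLL4 (chromosome 3, 11556069 to 11771350, minus strand), the repressor that competes with YAP1 and TAZ for TEADs, had 19.0, 24.5 and 25.4 CPM in siControl and 25.2, 31.8 and 32.5 CPM in siOGT. The groups overlapped, because siControl 3 was slightly above siOGT 1, but the pairs agreed closely. VGLL4 rose by 32.2%, 29.8% and 28.2% in the 3 pairs, a log2 fold change of 0.38 (SE 0.077, 95% confidence interval 0.22 to 0.54, edgeR adjusted p-value 0.00161). The call held without each of the replicates, with log2 fold changes of 0.37 to 0.38, but not in the edgeR fit that left out the block (adjusted p-value 0.215). Of the exonic bases of VGLL4, 22.2% are shared with ATG7, of TEAD2 10.7% with CD37 and of WWTR1 9.05% with WWTR1-AS1, in each case a gene of the other strand, and reads were assigned by strand.

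**Figure D2:**
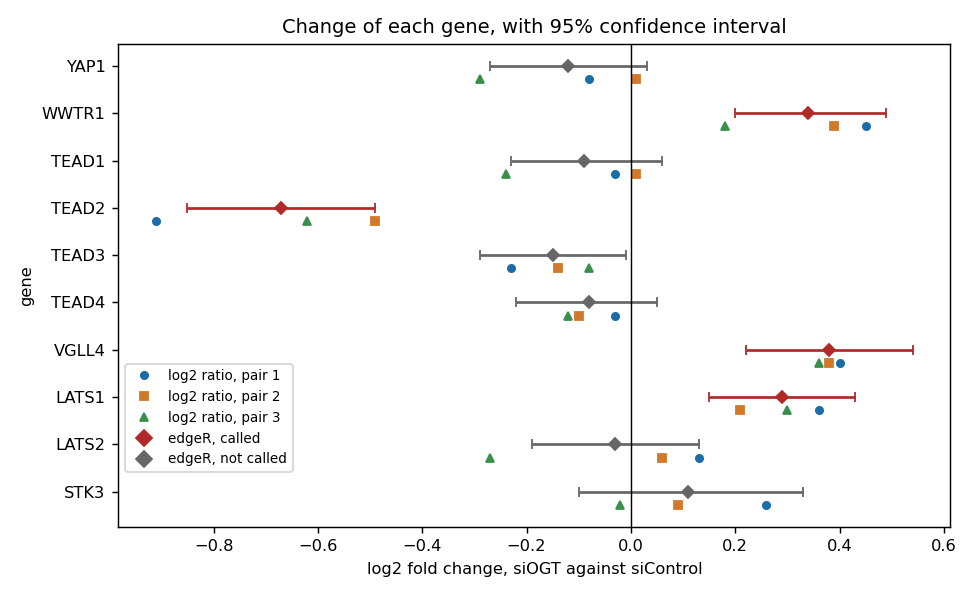
Log2 fold change of each of the 10 genes in siOGT against siControl (horizontal axis, 0 marked) with its 95% confidence interval from edgeR as a diamond and bar, red where called, and the log2 ratio of each pair below it. The intervals of WWTR1, VGLL4 and LATS1 lie above 0 and that of TEAD2 below it. The interval of TEAD3, -0.29 to -0.01, also excludes 0, although its adjusted p-value did not pass.

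Among the kinases, LATS1 (chromosome 6, 149658153 to 149718105, minus strand) was the gene that changed. It had 59.6, 48.4 and 51.2 CPM in siControl and 76.2, 55.9 and 63.2 CPM in siOGT. The groups overlapped, since siOGT 2 lay below siControl 1, and replicate 1 was highest in each. LATS1 rose by 27.9%, 15.6% and 23.5% in the 3 pairs, giving a log2 fold change of 0.29 (SE 0.068, 95% confidence interval 0.15 to 0.43, edgeR adjusted p-value 0.00435). It lost its call without replicate 1 (0.26, edgeR adjusted p-value 0.0829) and without the replicate block (0.274). LATS2 (chromosome 13, 20973036 to 21061586, minus strand), its paralog and itself a known target of YAP1 and TAZ, had 93.1, 73.0 and 89.5 CPM in siControl and 102, 75.9 and 74.4 CPM in siOGT. The pairs did not agree, with log2 ratios of 0.13, 0.06 and -0.27, and the direction turned without replicate 3 (-0.03 with all pairs, 0.09 without it). STK3 (chromosome 8, minus strand), the kinase upstream of LATS1 and LATS2, was the least abundant, with 10.8, 11.8 and 11.4 CPM in siControl and 13.0, 12.6 and 11.2 CPM in siOGT. With 289 to 351 counts per library, its log2 fold change of 0.11 had the widest interval of the 10 genes, -0.10 to 0.33 (edgeR adjusted p-value 0.462).

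To compare levels between genes, CPM was divided by the length in kilobases of the longest GENCODE 44 transcript. In siControl the order of the levels was TEAD4 (42.9 ± 3.28 CPM per kilobase), TEAD3 (38.8 ± 3.77), YAP1 (32.8 ± 2.73), WWTR1 (24.8 ± 2.36) and TEAD1 (17.9 ± 2.72; SD, n = 3 each). It continued with LATS2 (15.4 ± 1.93), TEAD2 (14.7 ± 1.38), LATS1 (7.2 ± 0.79), VGLL4 (6.08 ± 0.907) and STK3 (2.13 ± 0.0954). The ranges of TEAD4 and TEAD3, of TEAD1 and LATS2, of LATS2 and TEAD2 and of LATS1 and VGLL4 overlapped. In each siControl library, though, TEAD1 was above LATS2 (21, 16.1 and 16.5 against 16.8, 13.2 and 16.1 CPM per kilobase). LATS1 was likewise above VGLL4 in each (8.09, 6.57 and 6.95 against 5.04, 6.48 and 6.72). The order of TEAD4 and TEAD3 and of LATS2 and TEAD2 varied between libraries. In siOGT, WWTR1 (31.4 ± 3.00) stood ahead of YAP1 (30.2 ± 3.24), with overlapping ranges, and TEAD2 (9.3 ± 1.98) came to the level of LATS1 (8.84 ± 1.4). The order depends on the length used, as it did with the bases covered by any exon: TEAD3 (37.9) then came before TEAD4 (32.2), and WWTR1 (14.9) after TEAD1 (15.7) and LATS2 (15.2) in siControl. By these lengths YAP1 also stayed ahead of WWTR1 in siOGT, with a mean ratio of 1.37.

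The balance between paralogs was then determined within each library. The ratio of YAP1 to WWTR1 per kilobase was 1.6, 1.13 and 1.29 in siControl and 1.11, 0.865 and 0.927 in siOGT. It was lower in 3 of 3 pairs, by log2 ratios of -0.53, -0.38 and -0.47, and its groups did not overlap. The ratio of LATS1 to LATS2 was 0.482, 0.499 and 0.431 in siControl and 0.563, 0.555 and 0.64 in siOGT, higher in 3 of 3 pairs by 0.22, 0.15 and 0.57 on the log2 scale. Of the summed TEAD level, TEAD2 made up 12.1%, 14.1% and 12.3% in siControl and 7.28%, 11.1% and 9.07% in siOGT, a mean difference of -3.70 percentage points. The mean share of TEAD4 was 37.6% in siControl and 39.9% in siOGT, and that of TEAD3 was 34.0% and 34.4%. With exon-union lengths their order turned, with 33% and 35% for TEAD4 and 38.8% and 39.3% for TEAD3. The mean differences were 2.3 percentage points for TEAD4 (1.39 without replicate 1), 0.96 for TEAD1 (0.50 without replicate 1, 0.63 without replicate 2 and 1.75 without replicate 3) and 0.44 for TEAD3 (1.24 without replicate 1 and -0.46 without replicate 3). The shares of a library add up to the whole, so a smaller TEAD2 share raises the others together. The log2 fold changes of TEAD4, TEAD1 and TEAD3 themselves were below 0 and not called (-0.08, -0.09 and -0.15). The mean log2 difference of the LATS1 to LATS2 ratio, 0.32, was 0.19 without replicate 3. Two-sided exact sign-flip permutation tests over the 3 pairs gave 0.25 for the YAP1 to WWTR1 ratio, the LATS1 to LATS2 ratio, the TEAD2 share and the TEAD4 share, 0.5 for TEAD1 and 0.75 for TEAD3. With 3 pairs 0.25 is the smallest p-value possible, so these 6 values could not pass a threshold of 0.05. The summed level of the 4 TEADs was 119, 114 and 109 CPM per kilobase in siControl and 106, 103 and 96.1 in siOGT. That of YAP1 and WWTR1 together was 57.4, 56.4 and 58.8 in siControl and 63.7, 64.9 and 56.2 in siOGT, with overlapping groups.

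**Figure D3:**
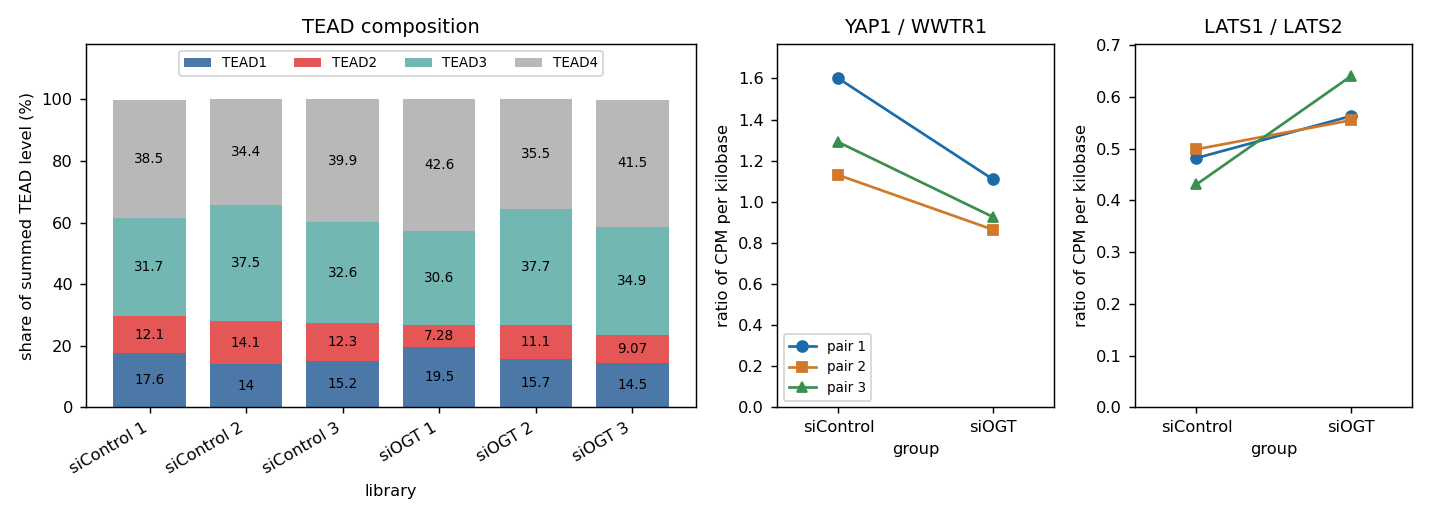
Left, share of each TEAD in the summed TEAD level (CPM per kilobase, percent) by library. Middle and right, ratio of YAP1 to WWTR1 and of LATS1 to LATS2 (CPM per kilobase) in each pair. The TEAD2 share is between 12.1% and 14.1% in siControl and between 7.28% and 11.1% in siOGT, and the lines of the YAP1 to WWTR1 ratio fall in all 3 pairs while those of LATS1 to LATS2 rise.

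The rest of the pathway was described with 8 lists of 77 genes, of which 75 were tested. Of these, 7 were called higher and 13 lower, together 26.7%, close to the 25.4% of all genes tested. With library totals in place of TMM factors, 11 rose and 9 fell, so the direction of the balance depended on the scaling. Of 12 upstream junction and polarity genes, 4 fell, or 33.3%, and 0 were called higher, which became 3 without replicate 3. AMOT, whose product binds YAP1 and holds it outside the nucleus, had 36.7, 37.8 and 30.7 CPM in siControl and 21.9, 27.2 and 16.8 CPM in siOGT (log2 fold change -0.69, SE 0.085, edgeR adjusted p-value 2.17e-05). Its homolog AMOTL1 fell as well (-0.44, edgeR adjusted p-value 0.000617), whereas the third angiomotin, AMOTL2, had a log2 fold change of 0.17 and did not pass (0.0759). DCHS1, an atypical cadherin, and WWC2, a relative of the LATS activator KIBRA, fell by 0.59 and 0.28 on the log2 scale (edgeR adjusted p-values 0.000163 and 0.00626). The 4 genes were not called by edgeR without the replicate block, and WWC2 not without replicate 1 (0.0664).

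Within the core kinase module, MOB1B, a coactivator of LATS, was the gene called among STK4, SAV1, MOB1A and MOB1B (log2 fold change -0.22, edgeR adjusted p-value 0.0386), and it lost its call with DESeq2 with the block (0.145), with library totals alone (0.0622) and without replicate 1 (0.219) or 2 (0.125). Of the 10 MAP4K, TAOK and NDR kinases, MAP4K2 fell (1 of 10 called), from 49.3 ± 3.79 to 37.8 ± 6.66 CPM (SD, n = 3 each, edgeR adjusted p-value 0.000918). Of 14 subunits of STRIPAK, the phosphatase complex that acts on STK3 and STK4, 2 rose, or 14.3%, below the 25.4% of all genes tested. PPP2R1B, a scaffold subunit of protein phosphatase 2A, had 30.3, 26 and 27.6 CPM in siControl and 44.4, 40 and 42.3 CPM in siOGT (log2 fold change 0.60, SE 0.072, edgeR adjusted p-value 1.92e-05). It was the gene among those named from the lists that stayed called in all 11 alternatives, including those without the block. STRN4 rose by 0.26 on the log2 scale (edgeR adjusted p-value 0.00598) and was not called without replicate 1 (0.101). LIMD1, which restrains LATS at junctions, fell from 87.2 ± 2.90 to 65.7 ± 1.52 CPM (SD, n = 3 each, edgeR adjusted p-value 0.0002), while AJUBA and WTIP of the same family were not called.

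Of 11 genes for retention and turnover of YAP1 and TAZ, 18.2% were called, below the 25.4% of all genes tested. The 14-3-3 genes YWHAB and YWHAQ fell (log2 fold changes -0.19 and -0.24, edgeR adjusted p-values 0.0419 and 0.012), and 9 were not called, among them CSNK1D, CSNK1E and BTRC. YWHAE, the most abundant 14-3-3 gene, was higher in 3 of 3 pairs without overlap but did not pass (0.14, edgeR adjusted p-value 0.156). From siControl to siOGT, mean CPM went from 1089 to 1198 for YWHAE, 515 to 453 for YWHAB and 329 to 279 for YWHAQ. YWHAG, YWHAH, YWHAZ and SFN were not called, and their pairs differed in sign. Neither YWHAB nor YWHAQ was called without replicate 1 (0.278 and 0.154) or without replicate 2 (0.121 and 0.0622), and YWHAB was not called with library totals alone (0.0655). Of the other TEAD cofactors, VGLL2 was called lower (-0.25, edgeR adjusted p-value 0.0347), a call lost without replicate 1 (-0.10, 0.527) with library totals alone (0.0585) and with DESeq2 with the block (0.0764). BNC2, a zinc finger factor of myofibroblasts, and VGLL3 were not called (-0.01 and 0.07).

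Genes known to respond to YAP/TEAD moved in both directions. Of 20 tested, 5 were called higher and 3 lower, 40.0% against 25.4% of all genes tested. These counts moved with the setting, to 9 higher and 2 lower with library totals alone and 8 and 4 with no filter on low counts. They were 8 and 2 without replicate 3, 4 and 1 without replicate 1, and 0 and 0 with edgeR without the replicate block. CTGF, a matricellular growth factor, had 205, 151 and 175 CPM in siControl and 134, 109 and 99.7 CPM in siOGT (log2 fold change -0.63, edgeR adjusted p-value 1.01e-05), and CYR61 of the same family fell by 0.21 (edgeR adjusted p-value 0.0263). Higher levels were found for GADD45A (0.71), ANKRD1 (0.68), NT5E (0.35), RBMS3 (0.31) and CCDC80 (0.25), the last named after its values were seen (edgeR adjusted p-values 3.87e-06, 1.32e-05, 0.00105, 0.0278 and 0.0137). ANKRD1 had 78.3, 28 and 57.5 CPM in siControl and 110, 54.1 and 89.1 CPM in siOGT. Its groups overlapped, as did those of GADD45A and CCDC80, although each rose in 3 of 3 pairs. ANKRD1 was not called with DESeq2 without the block (DESeq2 adjusted p-value 0.524). CYR61 was not called without replicate 1 (0.301), RBMS3 not without replicate 1 (0.0656) or 3 (0.3) or with DESeq2 with the block (0.107), and ARHGEF17, the last of those called lower (-0.20, 0.044), not without replicate 1 (0.193) or 3 (0.151) or with library totals alone (0.0702).

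**Figure D4:**
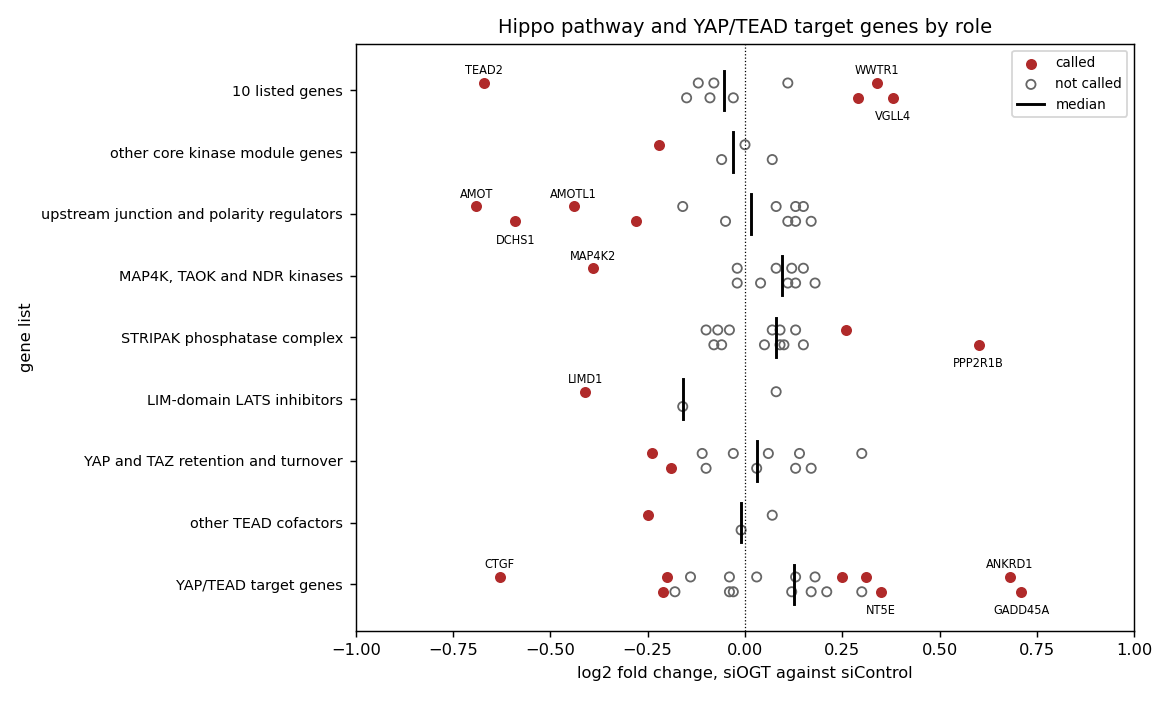
Log2 fold change in siOGT against siControl (horizontal axis) of the 10 genes and of the 8 lists of other pathway genes (rows), filled red where called by edgeR and open where not, with the median of each row as a bar. Row medians lie between -0.16 and 0.13, and the called genes with the largest decreases are AMOT, TEAD2 and CTGF.

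Genes with the pattern most like that of VGLL4 and TEAD2, the called genes with the highest and the lowest log2 fold change among the 10, were searched among 12363 genes whose mean CPM was 1 or more. Likeness was the root mean square difference of centred log2 CPM over the 6 libraries. For VGLL4 these were TMEM217 (0.054), METTL6 (0.055) and SERPINE2 (0.061). For TEAD2 they were ALDH5A1 (0.035), ATP8B3 (0.072) and PLCD1 (0.072). TMEM217 was itself not called (edgeR adjusted p-value 0.0626), with means of 3.96 CPM in siControl and 5.22 in siOGT, whereas the others were. Means of ATP8B3 and PLCD1 were 4.11 and 4.77 CPM in siControl and 2.54 and 3.15 in siOGT. How alike the closest of 12363 unrelated genes would be was not determined.

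**Figure D5:**
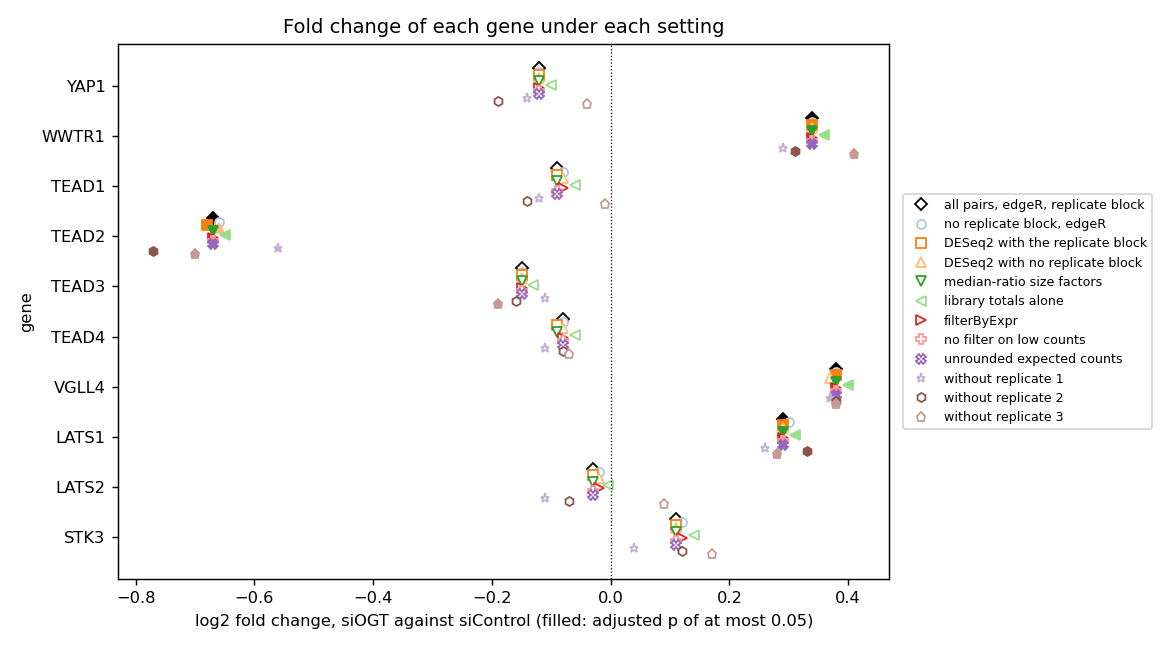
Log2 fold change of each of the 10 genes (rows) in siOGT against siControl (horizontal axis) with all pairs and under each of 11 alternatives, filled where called. The values of WWTR1, VGLL4 and LATS1 stay between 0.26 and 0.41 and those of TEAD2 between -0.77 and -0.56, whereas the values of LATS2 lie on either side of 0.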

How the data were processed

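RNA from 3 siControl and 3 siOGT libraries of LX-2 cells was enriched with oligo-dT and sequenced paired-end. Per the study's methods and the submitters' processing notes, reads were aligned to hg38 with Bowtie2 2.3.5.1 and counted per gene, by strand, with RSEM 1.3.1. The deposited tables hold these expected counts, in which a read matching several genes is divided between them, and they were not normalized. A further table holds the authors' own DESeq2 1.36.0 comparison (mean counts, log2 fold changes and p-values) and was not used here.

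Expected counts were rounded and genes with a total below 10 removed (2054 of 16907). Counts were scaled with TMM factors and tested (two-sided) by quasi-likelihood in edgeR 4.0.16 under R 4.3.3. The model held the group and a block for the replicate number, with Benjamini-Hochberg adjustment over 14853 genes. SE and 95% confidence intervals were derived from the F statistic, and log2 ratios within pairs use a prior count of 2. The replicate numbers pair the samples, since the authors paired samples by replicate in their own comparison, and deviations from group means correlated by 0.688, 0.525 and 0.332 between same-numbered libraries, across 12373 genes, which are not independent replicates. Libraries of a group differed by more than counting noise. Alternatives were DESeq2 1.42.0, fits without the block, other scalings and filters, unrounded counts, other gene lengths and leaving out each pair. The test was tried on simulated data. CCN1 and CCN2 are listed in the files as CYR61 and CTGF, VGLL1 was not analysed here, and FOXF2 was below the filter. Coordinates and lengths are from GENCODE 44 on hg38.

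The 10 genes and all lists were chosen with earlier results of these data known. Named from a list were its called genes, or, where more than 4 were called in a direction, the 4 with the largest change among those at a mean CPM of 1 or more whose 3 pairs had one sign. For the called genes of the 10 with the highest and lowest log2 fold change, the 3 other genes with the most similar pattern were named.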

Additional observations from a re-analysis of the deposited data

How the results depend on the processing

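The replicate block mattered most. Without it edgeR called 0 of the 10 genes higher and 0 lower (3 higher and 1 lower at an unadjusted p-value under 0.05), with log2 fold changes of 0.34 for WWTR1, 0.38 for VGLL4, 0.30 for LATS1 and -0.66 for TEAD2, 1 and 0 genes of the pathway lists higher and lower (5 and 8 unadjusted), and 71 and 59 of all genes. DESeq2 without the block called 0 of the 10 genes higher (3 unadjusted, WWTR1 0.34, VGLL4 0.37, LATS1 0.29) and TEAD2 lower, 3 and 4 pathway genes and 388 and 461 of all genes. The share of all genes at an unadjusted p-value under 0.05 was not determined, so the unadjusted counts have no background beside them. They do not restore a call. DESeq2 with the block called 1117 of all genes higher and changed the call of none of the 10. Library totals alone called 11 pathway genes higher. The cause of these differences was not tested.

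Without 1 replicate pair, 1 to 3 of the 10 genes were called higher and 1 to 2 lower, 5 to 14 pathway genes higher and 6 to 13 lower, and 858 to 1652 and 945 to 1787 of all genes. Each of these fits kept 2 pairs, so its p-values rest largely on variation shared across genes, and wholly so without replicate 2. Calls held or lost in these fits therefore say little about the spread of a single gene. The fit with all pairs also rests largely on such shared variation (15.5 prior degrees of freedom). Log2 fold changes ranged from 0.29 to 0.41 for WWTR1, from 0.26 to 0.33 for LATS1, from -0.19 to -0.11 for TEAD3 and from -0.11 to 0.09 for LATS2, and the difference of the TEAD3 share from -0.46 to 1.24 percentage points. The length of the Ensembl canonical transcript was chosen as an alternative after the data were seen. Counts of 289 to 351 for STK3 limit the precision of its change.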
